A study of Mus musculus with 18 samples.

Results

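The genes described here were 40 genes of DNA replication and mitosis, measured by RNA sequencing in mouse embryonic stem (ES) cells and in cultures differentiated from them. They were the rows that carried 40 given gene symbols, out of 23420 gene rows, and they comprised 18 genes of DNA replication and 22 genes of mitosis. The symbols were chosen for the genes' known roles, with earlier results of these data in view. All 40 had enough counts to be tested.

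The 18 libraries came from wild-type E14 ES cells, a feeder-free line kept with serum and leukemia inhibitory factor, and fell into 9 groups of 2. ES cells were taken after 24 h with 1 µM GW3965, an agonist of the liver X receptors (LXR), after 24 h with 1 µM LG268, an agonist of the retinoid X receptors (RXR), after 24 h with both, and as a control for the ligands, dimethyl sulfoxide being the vehicle named. Differentiated cultures went through embryoid bodies with 5 µM all-trans retinoic acid, then onto laminin and poly-ornithine in N2 medium. They were taken at day 8, at day 16 with GW3965, at day 16 without it, at day 17 with GW3965 and at day 17 without it. The labels do not give how long GW3965 was present in these cultures, although the deposited names read as from day 8 in the day 16 group and as 24 h in the day 17 group. The deposited names of the group with both ligands carry the word "ctrl", while its labels name both ligands, and the labels were followed. Nothing states that the 2 libraries of a group came from separate cultures, so p-values measure the spread between libraries, which may be technical.

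Libraries held 16.75 to 44.79 M counts assigned to genes (median 23.5 M), and levels are given as counts per 1 M scaled counts (CPM). The labels name embryonic stem cells as the source of all 18. The sum of 6 pluripotency markers was 60.8 and 58.4 CPM at day 8, against 2376 and 2354 CPM in ES control, and that of 6 neuronal markers was 2652 and 2722 CPM at day 8, against 64.4 and 65.8 CPM in ES control. Fibroblast or mesenchyme markers (6 genes) summed to 1665 and 1993 CPM at day 8, against 131 and 137 CPM in ES control, and to 10488 and 11891 CPM at day 16. Astrocyte markers (5 genes) summed to 845 and 878 CPM at day 16, against 57.0 and 59.7 CPM at day 8, so markers of several cell types were present together. The files of the 4 day 17 libraries listed 31.8 to 33.5% of their reads as not uniquely aligned, against 0 in the other 14. Of the remaining reads the share without a gene was 63.4 to 63.6% in the day 17 files, within the 62.8 to 65.9% of the other 14. The 2 libraries of day 16 with GW3965 differed more from each other (chi-square per gene 42.1) than those of any other group (2.86 to 10.7). In bulk RNA, fewer dividing cells and less of these RNAs per dividing cell cannot be told apart.

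A cell copies its DNA in S phase and divides it in mitosis, and the genes for these steps are switched on in turn. Origins are licensed when Cdc6 and Cdt1 load the ring of MCM proteins, which becomes an active helicase with Cdc45, the GINS complex and Mcm10, and the polymerases, the clamp Pcna and ribonucleotide reductase then make new DNA. Cyclin B with Cdk1 starts mitosis, the Polo and Aurora kinases build the spindle, and a checkpoint holds chromosome separation until every kinetochore is attached. Replication genes are known targets of E2F factors. Mitotic genes are known targets of the MuvB complex with B-Myb and Foxm1, through an element called CHR, often beside CCAAT boxes bound by NF-Y. In the developing nervous system, progenitors divide and neurons do not.

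The promoters of 4 members are shown, of 2 replication and 2 mitotic genes, as examples of the words known for each set. The windows run from 250 bases before the start of transcription to 50 after it (RefSeq, GRCm38.p6), and capitals mark E2F words (TTTCCCGC, TTTGGCGC, TTTCGCGC or TTTGCCGC), CHR words (TTTGAA or TTCGAA) and CCAAT, searched on both strands. Mcm5 encodes a subunit of the MCM helicase, and its window is chr8:75109259-75109558 on the plus strand. Cdc6 encodes a licensing factor, and its window is chr11:98907901-98908200 on the plus strand. Ccnb1 encodes cyclin B1, and its window is chr13:100786437-100786736 on the minus strand. Plk1 encodes Polo-like kinase 1, and its window is chr7:122159185-122159484 on the plus strand.
Mcm5: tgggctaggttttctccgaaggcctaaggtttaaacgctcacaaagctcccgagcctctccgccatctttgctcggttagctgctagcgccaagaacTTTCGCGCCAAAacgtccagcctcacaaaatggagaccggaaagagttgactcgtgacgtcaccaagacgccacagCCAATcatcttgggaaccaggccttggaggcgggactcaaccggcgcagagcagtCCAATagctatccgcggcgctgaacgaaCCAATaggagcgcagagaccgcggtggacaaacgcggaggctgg
Cdc6: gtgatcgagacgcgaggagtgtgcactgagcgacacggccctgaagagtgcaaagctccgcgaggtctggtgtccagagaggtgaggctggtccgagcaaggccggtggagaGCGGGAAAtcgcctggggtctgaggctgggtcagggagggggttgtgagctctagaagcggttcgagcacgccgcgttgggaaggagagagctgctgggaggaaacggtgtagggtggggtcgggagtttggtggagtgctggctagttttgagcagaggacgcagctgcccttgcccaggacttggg
Ccnb1: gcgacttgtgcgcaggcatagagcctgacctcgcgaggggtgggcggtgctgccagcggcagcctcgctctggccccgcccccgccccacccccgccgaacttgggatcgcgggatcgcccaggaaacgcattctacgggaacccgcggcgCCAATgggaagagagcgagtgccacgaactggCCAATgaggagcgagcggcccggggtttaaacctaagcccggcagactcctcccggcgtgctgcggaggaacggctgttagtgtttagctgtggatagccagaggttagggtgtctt
Plk1: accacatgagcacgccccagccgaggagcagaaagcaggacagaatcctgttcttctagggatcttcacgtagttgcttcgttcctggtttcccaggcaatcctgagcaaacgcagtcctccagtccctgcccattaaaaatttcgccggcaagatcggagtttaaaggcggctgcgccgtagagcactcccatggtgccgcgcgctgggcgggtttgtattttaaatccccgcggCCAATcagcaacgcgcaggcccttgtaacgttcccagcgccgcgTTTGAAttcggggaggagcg

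Mcm5 held overlapping E2F words on opposite strands and 3 CCAAT boxes, and Cdc6 held 1 E2F word, read on the opposite strand. Plk1 held 1 CCAAT box and 1 CHR word, and Ccnb1 held 2 CCAAT boxes and neither of the other words. A window was found for 32 of the 40 members. Among 14 replication members with a window, 7 (50%) held an E2F word, 3 (21.4%) a CHR word and 12 (85.7%) a CCAAT box. Among 18 mitotic members, 1 (5.56%) held an E2F word, 13 (72.2%) a CHR word and 15 (83.3%) a CCAAT box. Over the windows of 27025 genes the shares were 2.32%, 19.4% and 37.9%. Both CHR and CCAAT were found in 13 of 18 mitotic windows and in 7.7% of all. These are matches of letters, not measured binding sites.

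The 2 gene sets were high in ES cells and were lower at each later time of the untreated cultures. The day 17 files alone listed reads as not uniquely aligned, and the part of this in the day 17 levels was not tested. The 18 replication genes summed to 4338 and 4308 CPM in ES control, 2168 and 2163 CPM at day 8, 1520 and 1365 CPM at day 16, and 707 and 713 CPM at day 17. The 22 mitotic genes summed to 8007 and 8577 CPM in ES control, 3443 and 3351 CPM at day 8, 2404 and 2153 CPM at day 16, and 883 and 874 CPM at day 17. Libraries of successive times did not overlap for either sum. As a share of the ES control mean, the median replication gene stood at 54.2% at day 8, 34.1% at day 16 and 15.9% at day 17. The median mitotic gene stood at 41%, 27.5% and 11.3% at those times.

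**Figure D1:**
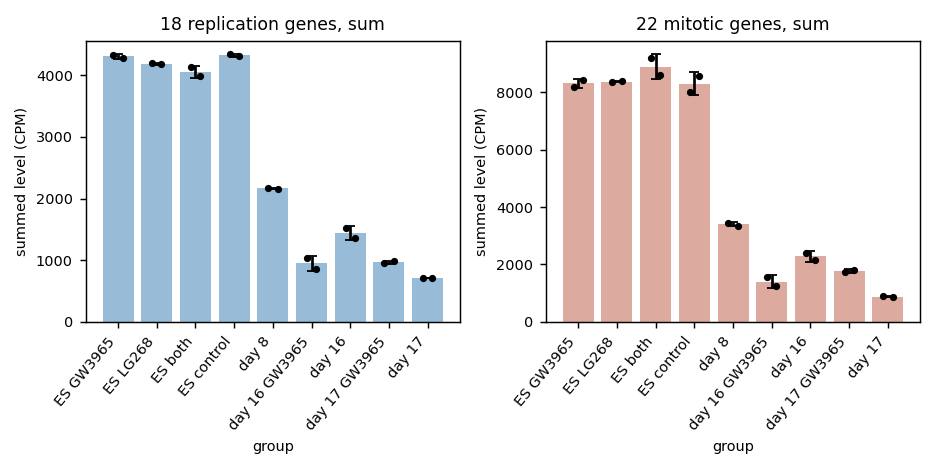
Summed level in CPM (vertical axis) of the 18 replication genes (left) and the 22 mitotic genes (right) in the 9 groups (horizontal axis). Points are the 2 libraries of a group, bars the mean and whiskers the SD. Both sums are lower at each later untreated time, and the day 17 files alone listed reads as not uniquely aligned. The GW3965 bar stands below its control at day 16 and above it at day 17.

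Per kilobase of exon (GENCODE M21), the clamp Pcna had the highest level at day 17, 26.4 CPM per kb. Mcm4 followed at 23.9 CPM per kb and Mki67, the coat protein of mitotic chromosomes used as a proliferation marker, at 17.2 CPM per kb. The order in ES control was another: Top2a, the topoisomerase that untangles sister chromatids, led at 233 CPM per kb, before Ccnb2, cyclin B2, at 169 CPM per kb and Cdc20, the activator of the anaphase-promoting complex, at 160 CPM per kb. Pcna kept the largest share of its ES control level (44% at day 17), and Bub1, a spindle checkpoint kinase, the smallest (3.24%). Bub1 had rank 31 of 40 in level per kb at day 17, against rank 9 in ES control.

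**Figure D2:**
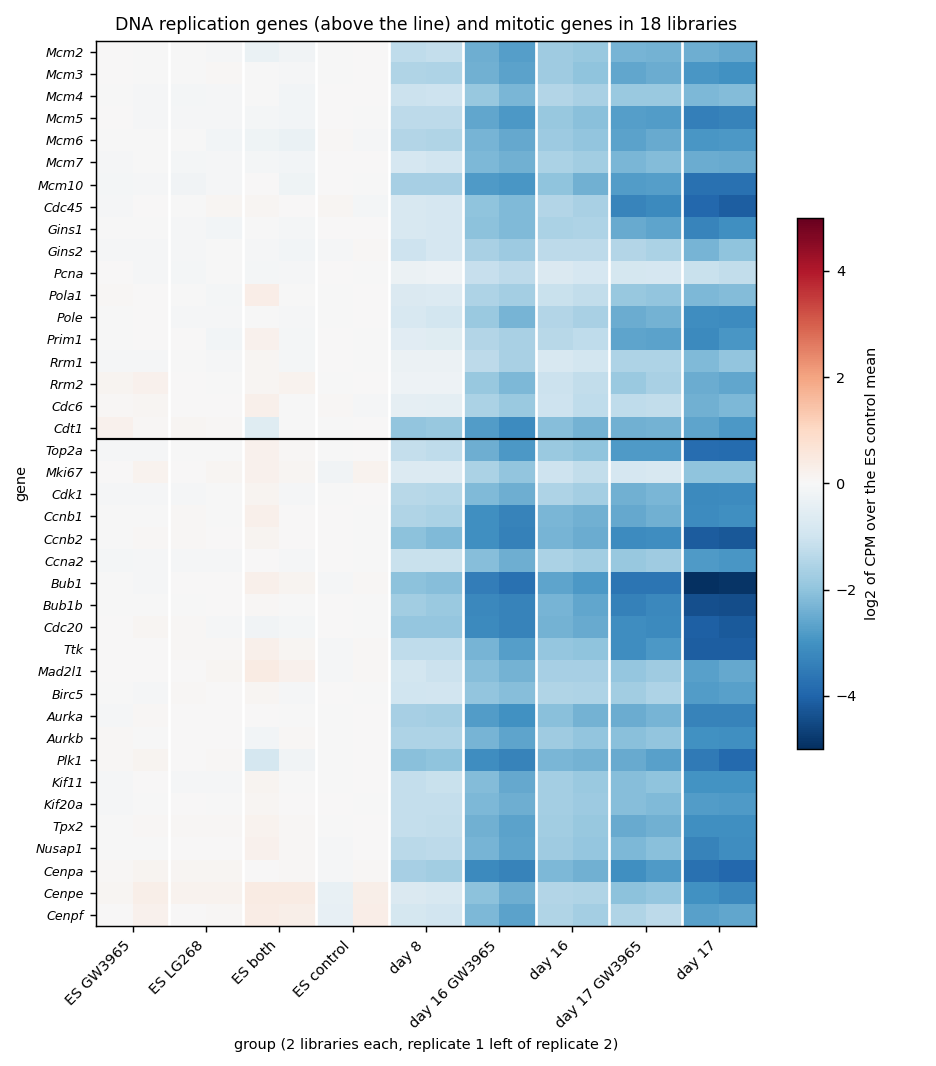
Level of each of the 40 genes (rows, replication genes above the line, mitotic genes under it) in each of the 18 libraries (columns), as log2 of its CPM over the ES control mean (colour scale, blue lower, red higher). The ES columns are near 0 for most genes, the differentiated columns are blue throughout, and Pcna is the palest and Bub1 the darkest row at day 17.

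At day 8 all 18 replication genes and all 22 mitotic genes fell relative to ES control. The adjusted p came from the quasi-likelihood test of edgeR with Benjamini-Hochberg adjustment over 17166 genes, and a gene was called at an adjusted p below 0.05. Of all genes tested, 39.7% were called higher and 39.1% lower in this comparison. The median log2 fold change was -0.88 for replication genes and -1.29 for mitotic genes, against 0.00 for all genes tested. By role, the medians were -1.27 for the 6 MCM subunits, -0.88 for the 4 genes of helicase activation, -0.64 for the 4 polymerase and clamp genes and -0.27 for the 2 subunits of ribonucleotide reductase. In mitosis they were -1.80 for the 5 checkpoint genes, -1.60 for the 4 genes of kinases and passenger proteins, -1.48 for Cdk1 and its cyclins and -0.93 for the 3 centromere and kinetochore genes.

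Cdt1, which loads the MCM ring together with Cdc6, had 39.0 and 40.7 CPM at day 8, against 150 and 153 CPM in ES control. This was the largest fall of a replication gene (log2 fold change -1.93 ± 0.13 SE, n = 2 each, edgeR adjusted p = 3.9e-11). Mcm10 had 51.7 and 51.7 CPM at day 8, against 168 and 161 CPM in ES control (-1.67 ± 0.09). Mcm3, a subunit of the MCM ring, had 166 and 161 CPM at day 8, against 463 and 473 CPM in ES control (-1.52 ± 0.08). In each of them the groups lay far apart compared with the gap between libraries. Ccnb2 had 62.5 and 56.2 CPM at day 8, against 262 and 255 CPM in ES control (-2.12 ± 0.08, adjusted p = 3.2e-15). Bub1 had 100 and 95.9 CPM at day 8, against 405 and 431 CPM in ES control (-2.09 ± 0.08). Plk1 had 63.2 and 67.3 CPM at day 8, against 266 and 278 CPM in ES control (-2.06 ± 0.14). These 3 mitotic genes fell further than any replication gene. Both libraries of day 8 were below both of ES control for each of the 40 genes, as for 44.9% of all genes tested.

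The smallest falls were of Pcna (-0.27 ± 0.06), Rrm1 (-0.27 ± 0.08) and Rrm2 (-0.27 ± 0.09), the subunits of ribonucleotide reductase. Rrm2 had 168 and 170 CPM at day 8, against 200 and 206 CPM in ES control. Cenpf, a kinetochore protein, had 175 and 166 CPM at day 8, against 245 and 406 CPM in ES control, where the 2 libraries differed. Cenpe, a kinetochore motor, had 124 and 117 CPM at day 8, against 160 and 251 CPM in ES control, and replicate 1 of ES control was the lower one for both genes and for Mki67 (616 and 776 CPM).

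Between day 8 and day 16, 17 of 18 replication genes and 21 of 22 mitotic genes fell again, against 32.2% of all genes tested lower and 29.4% higher. The median log2 fold change was -0.60 for replication genes and -0.58 for mitotic genes (all genes -0.04). Rrm2 had 97.3 and 86.3 CPM at day 16, against 168 and 170 CPM at day 8 (-0.88 ± 0.09, edgeR adjusted p = 7.0e-08). Mcm7 had 116 and 104 CPM at day 16, against 192 and 177 CPM at day 8 (-0.75 ± 0.07), and Cdc45 30.9 and 27.9 CPM against 49.3 and 48.4 CPM (-0.74 ± 0.09). The ranks differed from those of the earlier step: Rrm2, among the smallest falls by day 8, had the largest here. Ccnb1 had 53.2 and 48.6 CPM at day 16, against 90.4 and 84.7 CPM at day 8 (-0.78 ± 0.09). Cenpe had 74.0 and 71.6 CPM at day 16, against 124 and 117 CPM at day 8 (-0.73 ± 0.14). Ttk, the kinase at the head of the spindle checkpoint, had 37.0 and 34.7 CPM at day 16, against 58.5 and 58.4 CPM at day 8 (-0.71 ± 0.10). Both libraries of day 16 were below both of day 8 for each of the 40 genes, as for 43.6% of all genes tested. Cdt1 (-0.32 ± 0.14, adjusted p = 0.0505) and Plk1 (-0.27 ± 0.15, adjusted p = 0.121) did not pass the test. Over the whole span, day 16 against ES control, all 40 were called lower (39.6% of all genes tested lower, 41.5% higher), with medians of -1.55 for replication genes and -1.87 for mitotic genes. The falls over that span ran to -2.25 ± 0.14 for Cdt1, -2.20 ± 0.09 for Mcm10 and -1.97 ± 0.07 for Mcm5, and to -2.75 ± 0.08 for Bub1, -2.46 ± 0.08 for Bub1b and -2.45 ± 0.07 for Cdc20.

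At day 17 all 40 genes were called lower than at day 16 (29.5% of all genes tested lower, 26.8% higher). The median log2 fold change was -1.13 for replication genes and -1.32 for mitotic genes (all genes -0.02). Day 17 libraries alone had reads listed as not uniquely aligned, and whether reads were also given to genes differently was not tested. Cdc45 had 5.72 and 4.96 CPM at day 17, against 30.9 and 27.9 CPM at day 16 (-2.44 ± 0.11, edgeR adjusted p = 7.6e-13). Prim1, the primase that makes the first bases of each new strand, had 11.2 and 13.5 CPM at day 17, against 38.6 and 42.3 CPM at day 16 (-1.73 ± 0.11). Gins1 had 4.10 and 4.84 CPM at day 17, against 13.7 and 14.0 CPM at day 16 (-1.64 ± 0.12). These 3 belong to helicase activation and strand priming, while the MCM subunits ranged from -0.65 (Mcm2) to -1.40 (Mcm5). Bub1 had 13.3 and 13.8 CPM at day 17, against 67.8 and 56.9 CPM at day 16 (-2.20 ± 0.10). Ttk had 8.03 and 8.05 CPM at day 17, against 37.0 and 34.7 CPM at day 16 (-2.15 ± 0.13). Bub1b, the checkpoint protein that holds back Cdc20, had 18.9 and 18.4 CPM at day 17, against 79.2 and 64.8 CPM at day 16 (-1.94 ± 0.09). All 3 are checkpoint genes, whose median (-1.94, 5 genes) was the lowest of any role. The smallest falls were those of Pcna among replication genes (-0.39 ± 0.07) and Ccnb1 among mitotic genes (-0.78 ± 0.09).

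**Figure D3:**
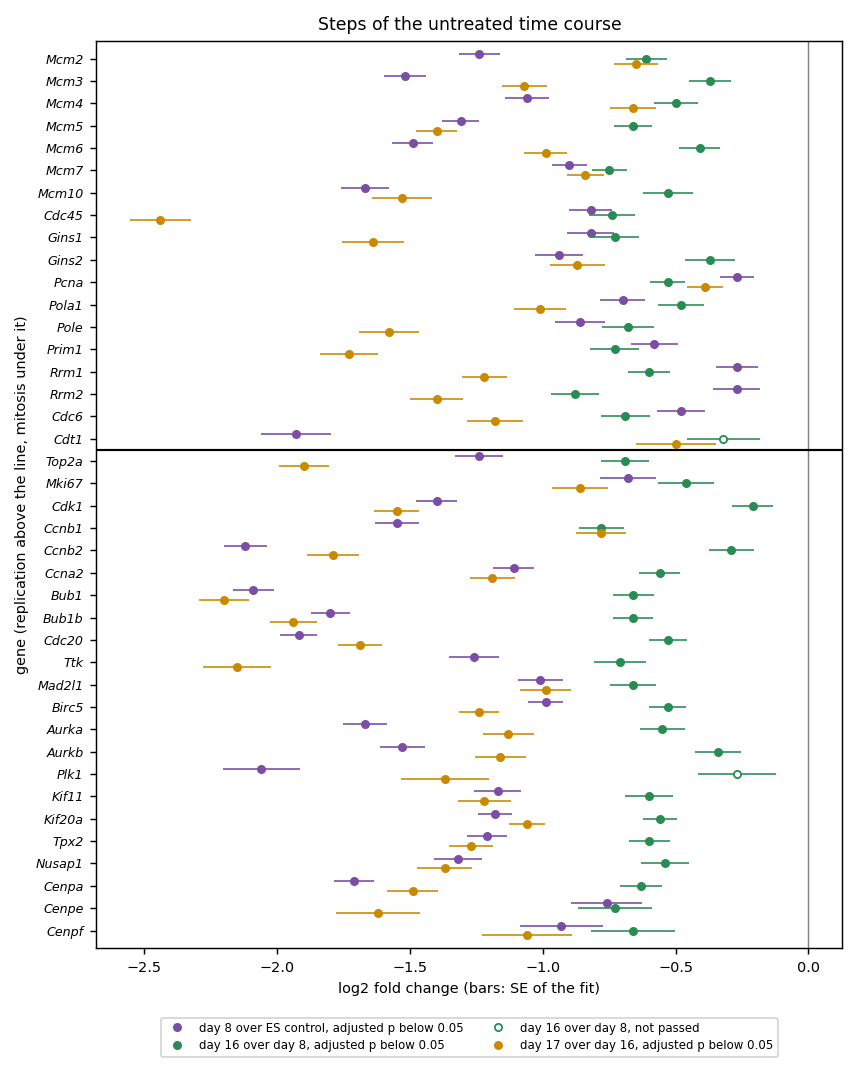
Log2 fold change of each gene (rows, replication genes above the line) at the 3 untreated steps: day 8 over ES control (purple), day 16 over day 8 (green) and day 17 over day 16 (orange). Bars are the SE of the fit and open points did not pass the test. Every point lies left of 0, and the green points lie closest to it for most genes. Only the orange step sets files with reads listed as not uniquely aligned against files without them.

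GW3965 in differentiated cultures went with lower levels at day 16 and higher levels at day 17. In the day 16 cultures, 17 of 18 replication genes and all 22 mitotic genes were lower with GW3965 than without it, against 18.7% of all genes tested lower and 13% higher. The median log2 fold change was -0.57 for replication genes and -0.71 for mitotic genes (all genes -0.03). Both GW3965 libraries lay below both untreated libraries for each of the 40 genes, as for 37% of all genes tested. In replicate 2 of the GW3965 group all 40 were lower than in replicate 1, against 50.8% of all genes tested. In the untreated group 36 of 40 were, against 49.4% of all genes tested. The libraries of a group thus differed in the level of these genes as well. Leaving out any 1 library gave 16 to 18 replication genes and 22 mitotic genes.

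Rrm2 had 54.8 and 42.6 CPM with GW3965, against 97.3 and 86.3 CPM without it at day 16 (-0.91 ± 0.09, edgeR adjusted p = 6.3e-07). Mcm5 had 89.7 and 74.4 CPM with GW3965, against 149 and 130 CPM without it (-0.76 ± 0.07). Mcm2, another MCM subunit, had 74.8 and 60.2 CPM with GW3965, against 117 and 107 CPM without it (-0.73 ± 0.08). All 6 MCM subunits were lower, from -0.52 (Mcm4 and Mcm6) to -0.76 (Mcm5). The polymerase and clamp genes had the smallest median (-0.44, 4 genes), and Prim1 did not pass (-0.23 ± 0.09, adjusted p = 0.065), with 36.4 and 32.5 CPM with GW3965, against 38.6 and 42.3 CPM without it. Cdc6 had 29.3 and 24.6 CPM with GW3965, against 42.9 and 36.3 CPM without it (-0.55 ± 0.10).

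Cenpa, the histone variant that marks centromeres, had 18.8 and 16.5 CPM with GW3965 at day 16, against 35.2 and 32.1 CPM without it (-0.93 ± 0.08, edgeR adjusted p = 2.0e-07). Plk1 had 31.5 and 26.8 CPM with GW3965, against 55.3 and 53.2 CPM without it (-0.89 ± 0.15). Ccnb1 had 30.4 and 25.4 CPM with GW3965, against 53.2 and 48.6 CPM without it (-0.87 ± 0.09). In all 3 the fall was larger than the gap between the libraries of either group. Mki67 had 231 and 176 CPM with GW3965, against 336 and 295 CPM without it (-0.63 ± 0.11). Role medians ran from -0.60 for spindle motors and microtubule proteins (4 genes) to -0.86 for centromere and kinetochore genes (3 genes). The smallest mitotic change was that of Birc5, survivin, at -0.54 ± 0.07.

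Markers of cell types moved in the same comparison. All 6 neuronal markers were called higher, with sums of 2049 and 1847 CPM with GW3965, against 1309 and 1277 CPM without it. All 6 fibroblast and mesenchyme markers were lower, with sums of 6223 and 4936 CPM with GW3965, against 10488 and 11891 CPM without it. Of 5 astrocyte markers 4 were lower (496 and 356 CPM, against 845 and 878 CPM), and of 6 neural progenitor markers 4 were lower (607 and 583 CPM, against 751 and 743 CPM). Of 6 pluripotency markers 5 were lower and 1 higher (17.8 and 16.2 CPM with GW3965, against 49.9 and 37.5 CPM without it), with a median log2 fold change of -1.81. Among them Nanog had 0.666 and 0.826 CPM with GW3965, against 7.28 and 4.18 CPM without it (-2.88 ± 0.30). Esrrb, the higher one, had 7.32 and 7.99 CPM with GW3965, against 6.21 and 4.27 CPM without it (0.59 ± 0.15). These levels were low, and 2 of the 6 pluripotency markers had a mean under 1 CPM with GW3965. Of 4 endothelial markers 3 were higher and 1 lower (64.1 and 47.4 CPM, against 32.6 and 47.3 CPM), and of 6 oligodendrocyte markers 1 was lower. None of these markers was at 0 in these groups, and 4 microglia and leukocyte markers summed to 1.12 and 1.44 CPM with GW3965, against 0.782 and 1.51 CPM without it. Their part in the levels of replication and mitosis genes was not tested.

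In the day 17 cultures, 15 of 18 replication genes and all 22 mitotic genes were higher with GW3965 than without it, against 17.2% of all genes tested higher and 18% lower. The median log2 fold change was 0.47 for replication genes and 1.03 for mitotic genes (all genes 0.02). Both GW3965 libraries lay above both untreated ones for each of the 40 genes, as for 33.5% of all genes tested. All 4 libraries belonged to the files with reads listed as not uniquely aligned. The ratio of the mitotic to the replication sum was 1.82 and 1.85 with GW3965, against 1.25 and 1.23 without it.

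Cdc6 had 37.2 and 38.0 CPM with GW3965, against 16.6 and 18.5 CPM without it at day 17 (1.11 ± 0.11, edgeR adjusted p = 2.0e-07). Mcm10 had 23.8 and 24.3 CPM with GW3965, against 12.3 and 12.4 CPM without it (0.96 ± 0.12). Rrm2 had 55.7 and 66.6 CPM with GW3965, against 36.2 and 33.2 CPM without it (0.82 ± 0.10). The MCM ring itself moved less: its 6 subunits had a median of 0.32, from 0.15 (Mcm2) to 0.59 (Mcm5). Mcm2 had 79.7 and 78.8 CPM with GW3965, against 74.2 and 67.9 CPM without it, and did not pass (0.15 ± 0.08, adjusted p = 0.162). Pola1, the catalytic subunit of polymerase alpha (0.25 ± 0.10, adjusted p = 0.0691), and Cdt1 (0.36 ± 0.15, adjusted p = 0.0803) did not pass either. Helicase activation genes had a median of 0.71 (4 genes), with Cdc45 at 8.84 and 9.50 CPM with GW3965, against 5.72 and 4.96 CPM without it.

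Bub1 had 33.1 and 33.6 CPM with GW3965 at day 17, against 13.3 and 13.8 CPM without it (1.31 ± 0.10, edgeR adjusted p = 7.8e-09). Cenpf had 116 and 133 CPM with GW3965, against 49.5 and 54.2 CPM without it (1.27 ± 0.17). Mki67 had 387 and 403 CPM with GW3965, against 174 and 173 CPM without it (1.19 ± 0.11). In these 3 every treated library was far above both untreated ones. Top2a had 294 and 296 CPM with GW3965, against 149 and 145 CPM without it (1.00 ± 0.09). Plk1 had 47.8 and 41.6 CPM with GW3965, against 23.5 and 18.2 CPM without it (1.09 ± 0.17). Ccnb1 had 43.6 and 48.5 CPM with GW3965, against 28.9 and 30.4 CPM without it (0.64 ± 0.10), one of the smallest rises of a mitotic gene. Tpx2, which activates Aurora kinase A on the spindle, rose least, by 0.60 ± 0.08. Role medians ran from 0.78 for spindle motors and microtubule proteins to 1.12 for centromere and kinetochore genes.

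The treated level at day 17 did not reach that of untreated day 16 for most genes: 34 of 40 had both libraries below both of the untreated day 16 libraries, and Mki67 had both above (387 and 403 CPM, against 336 and 295 CPM). Of all genes tested, 35.8% lay below and 40.2% above in this way. Only the day 17 files listed reads as not uniquely aligned, and the part of this in the comparison was not tested. Among markers at day 17, 4 of 6 neural progenitor markers were higher with GW3965 (sums 587 and 714 CPM, against 488 and 431 CPM), as were 3 of 6 oligodendrocyte markers (523 and 610 CPM, against 440 and 401 CPM). Of 5 astrocyte markers 1 was higher and 3 lower (2155 and 1642 CPM, against 2636 and 2968 CPM). Of 6 pluripotency markers 3 were higher and 1 lower (57.5 and 35.6 CPM with GW3965, against 36.2 and 28.9 CPM without it), with overlapping sums and a median log2 fold change of 0.56. The largest of these rises was that of Tdgf1 (1.30 ± 0.21). For the response at day 17 minus that at day 16, 5 of the 6 were higher and 1 lower (median 2.48). Of all genes tested, 20% were higher and 17% lower in that difference. In it all 6 neural progenitor markers were higher, as were 5 of 6 fibroblast and mesenchyme markers and 3 of 5 astrocyte markers. Of 6 neuronal markers 5 were lower and 1 higher. Oligodendrocyte markers had 2 higher of 6, and endothelial markers 1 higher and 1 lower of 4. With GW3965 against its control at day 17, neuronal markers had 2 higher and 2 lower of 6. Endothelial markers there had 1 higher of 4, and fibroblast and mesenchyme markers 2 higher and 1 lower of 6. No marker of these lists was at 0 in both libraries of either day 17 group, and their part in the result was not tested. Of the microglia and leukocyte markers, Cx3cr1 was at 0 at day 17 without GW3965.

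**Figure D4:**
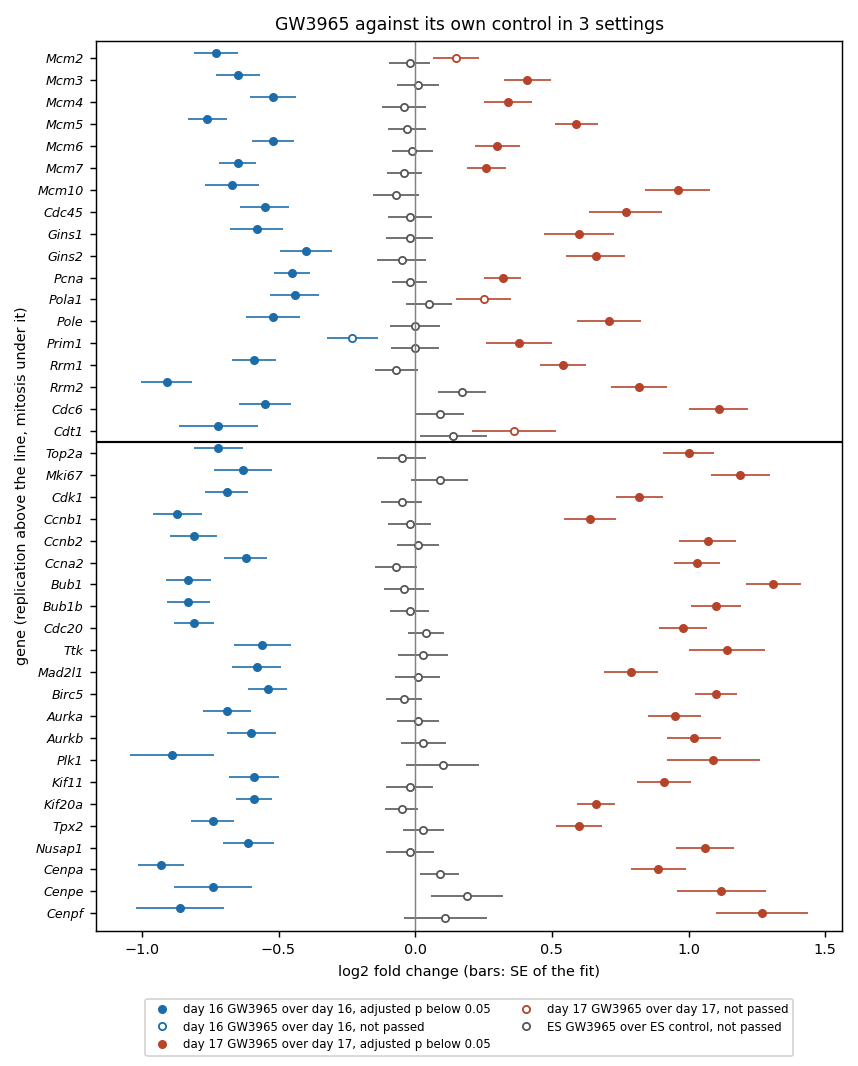
Log2 fold change of each gene (rows, replication genes above the line) with GW3965 over its own control at day 16 (blue), at day 17 (red) and in ES cells (grey). Bars are the SE of the fit and open points did not pass the test. Blue points lie left of 0, red points right of it and further right for most mitotic genes than for replication genes, and grey points around 0.

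The difference between these responses was tested as an interaction in the same fit. The GW3965 response at day 17 minus that at day 16 was positive and past the threshold for 18 of 18 replication genes (median 1.07) and 22 of 22 mitotic genes (median 1.69), against 20% of all genes tested higher and 17% lower. The largest differences were 1.73 ± 0.14 for Rrm2, 1.66 ± 0.15 for Cdc6 and 1.64 ± 0.15 for Mcm10 among replication genes, and 2.14 ± 0.13 for Bub1, 2.12 ± 0.23 for Cenpf and 1.98 ± 0.23 for Plk1 among mitotic genes. Across the 40 genes the 2 responses had a Pearson correlation of -0.41, given as a description, with -0.18 within the 18 replication genes and -0.09 within the 22 mitotic genes. The 2 responses shared no library. The day differed between them, as did the listing of reads that were not uniquely aligned. The labels do not say whether the time with GW3965 differed too, although the deposited names read so (from day 8, against 24 h).

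In ES cells neither ligand alone went with a change that passed the test. With GW3965, 0 replication and 0 mitotic genes were called by edgeR (0.309% of all genes tested higher, 0.0117% lower), and none had an unadjusted p below 0.05. Log2 fold changes ran from -0.07 (Mcm10, Ccna2) to 0.19 (Cenpe). Mcm5 had 550 and 522 CPM with GW3965, against 547 and 546 CPM in ES control, and Ccnb1 had 253 and 253 CPM against 257 and 256 CPM. With LG268, 0 were called and 0 had an unadjusted p below 0.05 (0.518% of all genes tested higher, 0.332% lower), with values from -0.12 (Mcm10) to 0.16 (Cenpe). With both ligands, 2 replication genes were called lower and, among mitotic genes, 1 higher and 1 lower (4.83% of all genes tested higher, 6.47% lower). The share called among members was thus near that of all genes. Mcm6 had 431 and 400 CPM with both ligands, against 516 and 486 CPM in ES control (-0.27 ± 0.07, edgeR adjusted p = 0.0238), and Mcm2 had 324 and 356 CPM, against 397 and 409 CPM (-0.24 ± 0.08, adjusted p = 0.0445). Mad2l1, a protein of the spindle checkpoint, had 210 and 184 CPM with both ligands, against 154 and 167 CPM in ES control (0.30 ± 0.08, adjusted p = 0.0245). Plk1 had 149 and 243 CPM with both ligands, against 266 and 278 CPM in ES control (-0.47 ± 0.14, adjusted p = 0.0310), and replicate 1 was far below the other 3 libraries. None of these 4 calls held in a fit of only the ES groups compared. The interaction of the ligands gave 0 calls by edgeR among the 40 genes (0.00583% of all genes tested higher, 0.128% lower), with 2 at an unadjusted p below 0.05.

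The GW3965 response at day 16 minus that in ES cells was negative and past the threshold for 16 of 18 replication genes (median -0.55) and 22 of 22 mitotic genes (median -0.71), against 9.89% of all genes tested lower and 4.86% higher. It was -1.08 ± 0.13 for Rrm2, -0.86 ± 0.19 for Cdt1 and -0.74 ± 0.10 for Mcm5, and -1.01 ± 0.11 for Cenpa, -0.99 ± 0.20 for Plk1 and -0.97 ± 0.22 for Cenpf. Prim1 (-0.24 ± 0.13) and Gins2 (-0.36 ± 0.13), a GINS subunit whose exons overlap a gene on the opposite strand, did not pass.

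Other genes of the same pathways were counted from lists of 43 replication genes, 50 mitotic genes and 19 regulators around E2F, RB and the MuvB complex. At day 8 against ES control, 34 other replication genes fell and 2 rose, and 48 other mitotic genes fell and 2 rose. Of all genes tested, 39.1% were lower and 39.7% higher. Between day 8 and day 16, 39 and 47 fell and none rose (all genes 32.2% lower, 29.4% higher). Between day 16 and day 17, 37 and 50 fell and none rose (all genes 29.5% lower, 26.8% higher). With GW3965 at day 16, 35 and 49 were lower and none higher (all genes 18.7% lower, 13% higher). With GW3965 at day 17, 29 other replication genes were higher and 4 lower, and 50 other mitotic genes were higher and none lower. All genes tested had 17.2% higher and 18% lower there. In that comparison the largest rises were those of Tk1, thymidine kinase (1.18 ± 0.11), Uhrf1, which keeps DNA methylation through replication (1.11 ± 0.10), and Cdca3 (1.42 ± 0.10), Espl1, the separase that cuts cohesin (1.32 ± 0.12), and Kif2c, a kinesin that takes microtubules apart (1.29 ± 0.11). The 4 lower ones were Orc2, Orc3 and Orc4, of the origin recognition complex, and Pole3, a histone-fold subunit of polymerase epsilon. Orc2 had 39.5 and 41.6 CPM with GW3965, against 48.2 and 48.5 CPM without it, and Pole3 had 21.7 and 22.4 CPM, against 29.4 and 29.0 CPM. These 4 were lower where the called MCM subunits were higher.

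Among the regulators, Mybl2 encodes B-Myb, the factor that joins MuvB in dividing cells. It had 27.3 and 26.7 CPM at day 8, against 284 and 283 CPM in ES control (-3.39 ± 0.11, edgeR adjusted p = 2.5e-16), a larger fall than that of any of the 40 genes in this comparison. With GW3965 Mybl2 was lower at day 16 (-0.60 ± 0.13) and at day 17 had 10.9 and 9.04 CPM, against 7.73 and 7.23 CPM without it, which did not pass (0.41 ± 0.17, adjusted p = 0.065). Foxm1, a factor for mitotic genes, had 47.6 and 38.7 CPM with GW3965 at day 16, against 69.2 and 60.3 CPM without it (-0.58 ± 0.09), and 74.0 and 75.5 CPM with GW3965 at day 17, against 42.1 and 38.0 CPM without it (0.90 ± 0.09). E2f7, a repressor of the E2F family, was lower with GW3965 at day 16 (-0.59 ± 0.10) and higher at day 17 (0.72 ± 0.11). E2f8, its close relative, changed by -0.37 ± 0.11 and 0.61 ± 0.12 in these comparisons. E2f1, an activator, changed by -0.49 ± 0.11 at day 16 and 0.39 ± 0.12 at day 17. At day 8 E2f1 had 44.3 and 43.4 CPM, against 47.9 and 50.8 CPM in ES control, and did not pass (-0.17 ± 0.11, adjusted p = 0.14). Of the 19 regulators, 11 were lower and none higher with GW3965 at day 16 (all genes tested 18.7% lower, 13% higher). At day 17, 8 were higher and 1 lower (all genes tested 17.2% higher, 18% lower).

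For 8 members more than 10% of the words of 50 bases were also found in other genes, on either strand. They were Mcm7, Pcna, Gins2, Ccnb1, Ccna2, Plk1, Cdc20 and Kif20a. Of the exon bases of Gins2, Kif20a and Ccna2, 67.3%, 29.3% and 12.5% overlap a gene on the opposite strand. How reads from shared or overlapping stretches were counted is not known. The remaining 32 members gave 31 lower and none higher with GW3965 at day 16 (all genes tested 18.7% lower, 13% higher). At day 17 they gave 29 higher and none lower (all genes tested 17.2% higher, 18% lower).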

How the data were processed

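Total RNA was sequenced in 18 libraries. The authors deposited whole-number counts of reads per gene, 1 file per library. Per the submitters' processing notes these came from TopHat2 2.0.7, Cufflinks 2.0.2, HTSeq 0.6.0 and Cuffdiff 2.0.2 on mm10. Their order, the strand setting and the annotation are not given in the sources used here. Counts of overlapping or antisense genes can therefore not be told apart. The 5 HTSeq summary lines of each file were left out: reads without a gene made up 42.1 to 43.4% of the 4 day 17 files, against 62.8 to 65.9% of the other 14, and 63.4 to 63.6% of the day 17 reads not listed as aligned more than once.

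From these counts, CPM were scaled by TMM (factors 0.912 to 1.11), and 17166 genes that passed filterByExpr were fitted in 1 quasi-likelihood model of edgeR 4.0.16 (R 4.3.3) with 9 groups. It had 9 residual and 10.4 prior degrees of freedom and a common biological variation of 6.47%. Two-sided p-values of each of 12 comparisons were corrected over all genes tested (Benjamini-Hochberg). SE is the log2 fold change over the root of F, so it covers counting error and the fitted spread. Alternatives were no filter, DESeq2 1.42.0 size factors and Wald test, only the groups compared, no day 17 libraries, a replicate block, and leaving out each library.

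Named genes were the 3 replication and 3 mitotic members with the largest change among those called in a comparison, a set of 10 members open to naming throughout, 5 regulators, and up to 3 genes of each other list. Where named outside that rule, these members were chosen after their values were seen: Cdc45, Ccna2, Cenpe, Cenpf, Cdt1, Mcm10, Bub1, Ccnb2 and Cdc20. The same holds for Pola1, Prim1, Gins2, Birc5, Tpx2, Rrm1, Mcm4 and Mcm6. Esrrb, Orc2, Orc3, Orc4 and Pole3 were also chosen after their values were seen. Members and lists were chosen with earlier results of these data known. Sequences are from RefSeq, and exon lengths and shared words of 50 bases from GENCODE M21, which may differ from the annotation the authors used.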

Additional observations from a re-analysis of the deposited data

Results flagged for a closer look

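The GW3965 response differed between settings by a test of the difference itself. The response at day 16 minus that in ES cells passed for 38 of the 40 members, all of them lower. Of all genes tested, 9.89% were lower and 4.86% higher. On the log2 scale the difference was -1.08 for Rrm2, -0.86 for Cdt1, -0.74 for Mcm5, -1.01 for Cenpa, -0.99 for Plk1 and -0.97 for Cenpf. The response at day 17 minus that at day 16 passed for 40 of 40 members, all of them higher (20% of all genes tested higher, 17% lower). This difference was 1.73 for Rrm2, 1.66 for Cdc6, 1.64 for Mcm10, 2.14 for Bub1, 2.12 for Cenpf and 1.98 for Plk1. Between day 16 and day 17 the listing of reads that were not uniquely aligned differed along with the day, and these cannot be told apart. No ES or day 16 file listed such reads. The ES cells were undifferentiated, while the day 16 cultures had been differentiated with retinoic acid, and these differences cannot be told apart either. The labels give the time with GW3965 for ES cells but not for the differentiated cultures. The deposited names read as from day 8 in the day 16 group and as 24 h in the day 17 group. Such a difference in time with GW3965 could not be told apart from the others either.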

How the results depend on the processing

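Of 217 alternatives to 21 counts of called members, 201 were within 1.5 times the reported count, and 16 moved, all in comparisons of ES cells. For both ligands the count of replication genes went to 1 with DESeq2 size factors, 1 with a replicate block, 1 without the day 17 libraries and 0 with only the groups compared, and ran from 0 to 3 when a library was left out. The count of mitotic genes went to 4 with no filter and 0 with only the groups compared, and ran from 0 to 3 when a library was left out. For GW3965 in ES cells, 1 replication gene was called with only the groups compared, and 0 to 1 mitotic genes when a library was left out, as for LG268 (0 to 1). The ligand interaction gave 2 with no filter and 0 to 3 when a library was left out. With GW3965 at day 17 the replication count ran from 12 to 14, and at day 16 from 16 to 18, when a library was left out. Of 1622 alternatives for single members, 25 lost their call, 6 gained one and 0 reversed. Over expressed genes, the differences between replicates 1 and 2 were little correlated between groups (36 pairs of groups, correlation -0.192 to 0.121, 1 of them over 0.1). Such a correlation cannot show whether replicates of the same number shared a culture or batch. The replicate block changed no count of calls by over 1.5 times but the one above. With 2 libraries a group, a change in ES cells that was not called is not shown to be absent.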
